A study of Mus musculus with 59 samples.

Results

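The 8 sarcomeric myosin heavy chain genes *Myh1*, *Myh2*, *Myh3*, *Myh4*, *Myh6*, *Myh7*, *Myh7b* and *Myh8* were followed through mouse limb muscle and diaphragm by RNA-seq. They were taken by symbol from a table of 47643 genes, and all 8 were found, each above 0 in each of the 59 libraries. Values are TPM, transcript abundances that sum to the same total in each library, per gene length, and can therefore be compared between genes within a library. Each gene was also expressed as its share of the summed TPM of the 8 members.

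Female athymic NCI Ath/nude mice aged 4 months carried a human melanoma xenograft derived from a patient, which was either cachectic, meaning that it causes muscle wasting, or non-cachectic. The tibialis anterior (TA), a hindlimb muscle, gave 5 libraries with the non-cachectic and 5 with the cachectic melanoma, and so was the soleus (SOL). Mice sampled for the diaphragm (Dia), the main breathing muscle, received intraperitoneal injections of recombinant Fibcd1 (rFibcd1), a secreted muscle factor, or of the mock vehicle, PBS with BSA. The diaphragm groups were 9 mock and 10 rFibcd1 libraries with the non-cachectic melanoma and 10 mock and 10 rFibcd1 libraries with the cachectic melanoma. For both cachectic diaphragm groups the paper's expression heatmap reports fewer diaphragms than these 10 libraries, and the reason is not given. No mice without a tumor were analyzed here, and 1 xenograft line stood for each kind of melanoma, so that cachexia and any other property of the line cannot be told apart. Libraries are called by the number in their column heading, which is not a replicate number from the labels.

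A myosin heavy chain is the motor protein of the thick filament, and the heavy chain that a myofiber makes is the usual basis for naming its fiber type. In adult mouse muscle *Myh7* encodes the slow type I chain, and *Myh2*, *Myh1* and *Myh4* encode the fast IIa, IIx and IIb chains, in order of rising shortening speed. *Myh3* and *Myh8* encode the embryonic and perinatal chains of developing fibers, *Myh6* the alpha chain best known from the heart, and *Myh7b* a slow-type chain related to *Myh7*. The soleus of the mouse is known as a slow muscle, the TA as a fast one, and the diaphragm as a mixed muscle in constant use.

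*Myh3*, *Myh2*, *Myh1*, *Myh4* and *Myh8* lie in this order on the plus strand of chromosome 11 (GRCm38), from 67078300 to 67308634. *Myh6* and *Myh7* are neighbors on the minus strand of chromosome 14, and *Myh7b* lies on chromosome 2. The 250 bases before the start of 4 genes of the cluster, the 3 adult fast chains and the perinatal chain, are shown, from the RefSeq promoter table of GRCm38.p6, because these neighbors share some sequence features but reached different levels in the 3 muscles. Capitals mark matches to 4 motifs searched on both strands, which are TATAAA (the TATA box, in 13.6% of promoters), the MCAT element CATTCC (in 14.7%), the MEF2 consensus and the CArG box.
Myh2 (chr11:67170777-67171026, plus strand): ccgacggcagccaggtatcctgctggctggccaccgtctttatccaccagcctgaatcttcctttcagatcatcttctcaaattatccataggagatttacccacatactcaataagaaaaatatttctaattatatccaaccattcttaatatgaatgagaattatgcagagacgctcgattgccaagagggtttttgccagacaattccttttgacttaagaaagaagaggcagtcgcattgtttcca
Myh1 (chr11:67199852-67200101, plus strand): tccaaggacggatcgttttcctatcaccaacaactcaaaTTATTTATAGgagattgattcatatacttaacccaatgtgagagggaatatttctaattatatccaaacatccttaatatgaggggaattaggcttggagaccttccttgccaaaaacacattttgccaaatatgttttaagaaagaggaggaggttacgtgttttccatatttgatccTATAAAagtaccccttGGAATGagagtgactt
Myh4 (chr11:67237562-67237811, plus strand): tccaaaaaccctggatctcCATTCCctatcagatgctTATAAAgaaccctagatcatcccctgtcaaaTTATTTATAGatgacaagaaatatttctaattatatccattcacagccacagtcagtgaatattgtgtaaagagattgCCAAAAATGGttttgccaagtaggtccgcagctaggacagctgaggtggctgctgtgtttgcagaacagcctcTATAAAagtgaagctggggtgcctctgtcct
Myh8 (chr11:67276874-67277123, plus strand): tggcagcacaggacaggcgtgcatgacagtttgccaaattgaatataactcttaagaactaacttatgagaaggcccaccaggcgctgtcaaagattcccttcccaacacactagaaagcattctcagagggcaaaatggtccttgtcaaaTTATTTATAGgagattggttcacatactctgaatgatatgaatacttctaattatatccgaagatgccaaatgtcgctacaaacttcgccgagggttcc

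*Myh1*, *Myh4* and *Myh8* each held the same 10 letters, TTATTTATAG, as a MEF2 match, at −211 to −202, −182 to −173 and −99 to −90 from the start. A MEF2 match was present in 3.19% of the 32851 promoters of the table, and in each of these matches the reverse strand also holds TATAAA. A further TATAAA stood at −32 to −27 in *Myh1* and at −31 to −26 in *Myh4*, a placing within 50 to 11 bases before the start, on the same strand, that 2.40% of promoters had. *Myh3*, whose sequence is not shown, also had a TATAAA in this placing, at −29 to −24. *Myh4* alone among the 8 members had a CArG match, at −104 to −95, which 1.63% of promoters had. *Myh2* had no capital letter in the window shown. A match is only a match of letters, and no binding was measured here.

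The chains are also alike in coding sequence, which bears on how reads are assigned. The longest stretch that *Myh1* and *Myh2* share without a difference is 268 bases in their exons 23 and 24, and that of *Myh6* and *Myh7* is 245 bases. It is printed because reads of 100 bases that fall inside it cannot be told apart.
Myh6 (chr14:54948327-54948725, minus strand, exons 30 and 31) and Myh7 (chr14:54974947-54975347, minus strand, exons 32 and 33): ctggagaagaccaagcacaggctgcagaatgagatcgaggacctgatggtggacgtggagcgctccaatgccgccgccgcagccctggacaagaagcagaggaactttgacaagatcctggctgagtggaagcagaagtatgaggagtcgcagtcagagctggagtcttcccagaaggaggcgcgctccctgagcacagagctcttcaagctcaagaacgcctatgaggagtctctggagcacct

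Windows of 100 coding bases identical to another of these chains or to *Myh13* made up 12% of those of *Myh6* and of *Myh7*, 10.1% of *Myh1*, 9.57% of *Myh2*, 7.00% of *Myh8*, 3.99% of *Myh4*, 1.19% of *Myh3* and 0 of *Myh7b*. How reads that match several genes were assigned, and whether strand was used, is not given in the sources used here. The antisense gene *Mhrt* overlaps *Myh7*, and it was listed at no more than 1.92 TPM in any library.

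Sequencing depth is unknown, since TPM keeps no read total, and 16436 to 19456 genes were above 0 per library. Mitochondrial genes took 24.1 to 51.9% of TPM, with means of 48.5% and 38.8% in non-cachectic and cachectic TA, 41.1% and 30.5% in SOL, and 47.5% and 38.1% in mock Dia. The summed TPM of 5 smooth muscle markers (*Myh11*, *Acta2*, *Tagln*, *Cnn1* and *Smtn*) was 77.4 to 125 in non-cachectic and 134 to 221 in cachectic TA, 191 to 287 and 243 to 563 in SOL, and 124 to 221 and 159 to 549 in mock Dia. *Cnn1* was at 0.512 TPM in its lowest library. *Des*, desmin, stood in the same list but is also made by myofibers, and it was left out of these sums after its values were seen. It was 785 to 1094 TPM in non-cachectic and 2331 to 4594 TPM in cachectic TA, 1580.5 to 2035 and 4176 to 10055 TPM in SOL, and 1071 to 1725 and 1405 to 4163 TPM in mock Dia. The 6 liver markers summed to 1.79 to 8212 TPM in Dia, to at most 29.9 TPM in TA and to at most 70.2 TPM in SOL. The 6 adipocyte markers summed to 286 to 485 TPM in TA, 588 to 3440 TPM in SOL and 517 to 3599 TPM in Dia. In mock Dia their median sum was 618 TPM with the non-cachectic and 1079 TPM with the cachectic melanoma, and none of the 6 was called between them. The part of all these marker genes in the results on the members was not tested. A pseudogene row, *Pcna-ps2*, was above 2 TPM in all 10 cachectic and in 0 of 10 non-cachectic limb libraries. In Dia it was above 2 TPM in 9 of 10 cachectic mock, 8 of 10 cachectic rFibcd1, 3 of 9 non-cachectic mock and 6 of 10 non-cachectic rFibcd1 libraries. In the limb muscles this state and the melanoma cannot be told apart.

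Each muscle had its own leading chain. *Myh4* led in 10 of 10 TA libraries and *Myh7* in 10 of 10 SOL libraries, while *Myh1* led in 37 of 39 Dia libraries and *Myh2* in the other 2 (cachectic mock library 6 and non-cachectic mock library 67). The summed family TPM was 14408 to 20631 in TA, 8505 to 14727 in SOL and 5812 to 15812 in Dia. The 4 adult chains *Myh1*, *Myh2*, *Myh4* and *Myh7* made up 99.2% or more of the family in TA, 97.8 to 99.1% in Dia and 83.9 to 90.5% in SOL, where *Myh6* took most of the rest.

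**Figure D1:**
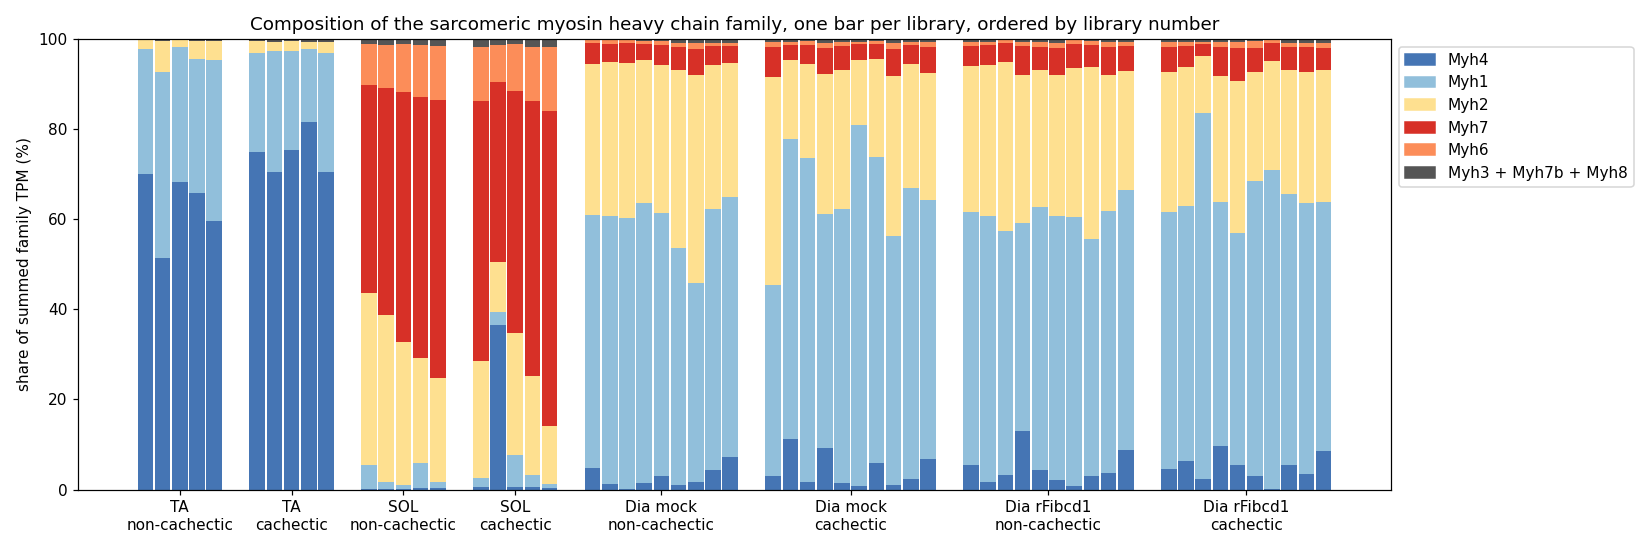
Share of the summed family TPM (y axis, %) held by each chain, with 1 bar per library and the libraries ordered by number within the 8 groups on the x axis. *Myh4* is the largest part of every TA bar, *Myh7* of every SOL bar and *Myh1* of most Dia bars, and in cachectic SOL library 7 *Myh4* held 36.4%.

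*Myh4*, the IIb chain, spanned the widest range of the fast chains. In TA it was 13729, 7593, 12845, 11695 and 10026 TPM with the non-cachectic melanoma (libraries 61 to 65) and 11697, 14537, 10854, 14207 and 13729 TPM with the cachectic melanoma (libraries 6 to 10). In SOL it was 7.34, 7.64, 12.1, 24.9 and 22 TPM in libraries 61 to 65 and 49.2, 4989, 69.8, 56.7 and 31.2 TPM in libraries 6 to 10. TA libraries were thus all above the SOL libraries, and SOL library 7 stood apart from its own group. In mock Dia, *Myh4* ran from 13.8 through a median of 127 to 567 TPM with the non-cachectic melanoma and from 99.6 through 209 to 1313 TPM with the cachectic melanoma. With rFibcd1 the corresponding values were 74.7, 283 and 963 TPM, and 18.0, 352 and 957 TPM. By group mean the order was cachectic TA, non-cachectic TA, cachectic SOL, cachectic mock Dia, cachectic rFibcd1 Dia, non-cachectic rFibcd1 Dia, non-cachectic mock Dia and non-cachectic SOL, and only non-cachectic TA and cachectic SOL were neighbors whose ranges did not overlap. The place of cachectic SOL rested on library 7, since the other 4 libraries had a mean of 51.7 ± 16.1 TPM (SD), below the mean of every Dia group.

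*Myh1*, the IIx chain, was high in both TA and Dia. In TA it was 5432, 6064, 5599, 5257 and 6019 TPM in non-cachectic libraries 61 to 65 and 3423, 5528, 3172, 2810.0 and 5184 TPM in cachectic libraries 6 to 10. Mock Dia ran from 3184 through a median of 4539 to 4925 TPM with the non-cachectic melanoma and from 2856 through 5213 to 11417 TPM with the cachectic melanoma. In rFibcd1 Dia it was 3409, 4397 and 5506 TPM, and 3281, 4319 and 11824 TPM. Cachectic Dia libraries were spread more widely than non-cachectic ones, with highest-over-lowest ratios of 4.00 and 3.60 against 1.55 and 1.61, and the ratio of 3.60 was 2.31 without library 3. In SOL *Myh1* was 513, 139, 83.2, 497 and 132 TPM in non-cachectic and 230.2, 412, 1045, 251 and 116 TPM in cachectic libraries, so that the groups overlapped and all 10 lay below every TA and Dia library.

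*Myh2*, the IIa chain, was the least variable of the fast chains between SOL and Dia. Non-cachectic SOL libraries held 3635, 3145, 3039, 2087 and 2079.9 TPM and cachectic ones 2699, 1516, 4013, 2069 and 1446 TPM. Mock Dia held 2306, 2762 and 3334 TPM (lowest, median, highest) with the non-cachectic and 1726, 2566 and 3452 TPM with the cachectic melanoma, and rFibcd1 Dia held 1829.6, 2481 and 3381 TPM, and 1787, 1970.3 and 2984 TPM. In TA it was 427, 1039, 352, 731 and 739.8 TPM without and 407, 406, 303, 279.5 and 452 TPM with the cachectic melanoma. All 10 TA libraries were below all SOL and Dia libraries, and the SOL and Dia group ranges overlapped with each other.

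*Myh7*, the slow chain, was highest in SOL, intermediate in Dia and near 1 TPM in TA. In SOL it was 4407, 4288, 5313, 5166 and 5550.4 TPM in non-cachectic and 6029, 5478, 7886, 5738 and 7848 TPM in cachectic libraries. In mock Dia it was 265, 347 and 419 TPM (lowest, median, highest) with the non-cachectic and 319, 461 and 598 TPM with the cachectic melanoma, and in rFibcd1 Dia 332, 386 and 489 TPM, and 282, 375 and 652 TPM. In TA *Myh7* was 0.460, 0.904, 0.271, 0.299 and 2.31 TPM in non-cachectic and 3.16, 4.83, 0.807, 1.14 and 2.56 TPM in cachectic libraries. The 3 muscles did not overlap.

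*Myh6* kept the order of *Myh7* at a lower level. It was 873, 814, 1014, 1024 and 1075 TPM in non-cachectic and 1248, 1121, 1539, 1133 and 1617 TPM in cachectic SOL, 49.5 to 153 TPM in Dia and 0.250 to 3.30 TPM in TA. Divided by *Myh7* in the same library, *Myh6* was 19.0 to 20.7% in the 10 SOL libraries and had a median of 18.6% in the 39 Dia libraries, with a range of 16.8 to 29.3%. The highest Dia value came from cachectic rFibcd1 library 11, where *Myh6* was 153 TPM and *Myh7* 522 TPM. In that library 0 of 11 heart markers was above the other 9 libraries of its group and 4 were below them. The share of all genes above or below was not computed for this library, so these counts have no background to be read against. The summed TPM of the 11 heart markers was 36.5 to 163 in non-cachectic and 10.5 to 21.7 in cachectic TA, 28.2 to 44.1 in SOL and 6.28 to 51.1 in Dia. The highest levels were those of *Actc1* (up to 160 TPM), which developing skeletal muscle also makes, *Myl7* (up to 13.3 TPM) and *Myl4* (up to 9.98 TPM), and the other 8, with *Nppa* and *Mybpc3* among them, reached at most 3.53 TPM. Their part in the *Myh6* values was not tested. In TA, where both genes were near 1 TPM, the ratio ran from 54.4 to 233%. Given the shared windows, the part of reads from *Myh7* in the *Myh6* values was not tested.

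*Myh7b* was also highest in SOL. It was 71.1, 70.4, 85.6, 80.0 and 75.3 TPM in non-cachectic and 94.4, 64.5, 57.8, 87.7 and 107 TPM in cachectic SOL, 3.42 to 11.9 TPM in Dia and 0.181 to 2.44 TPM in TA. The muscles did not overlap, and *Myh7b* has no 100-base coding window identical to another chain.

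**Figure D2:**
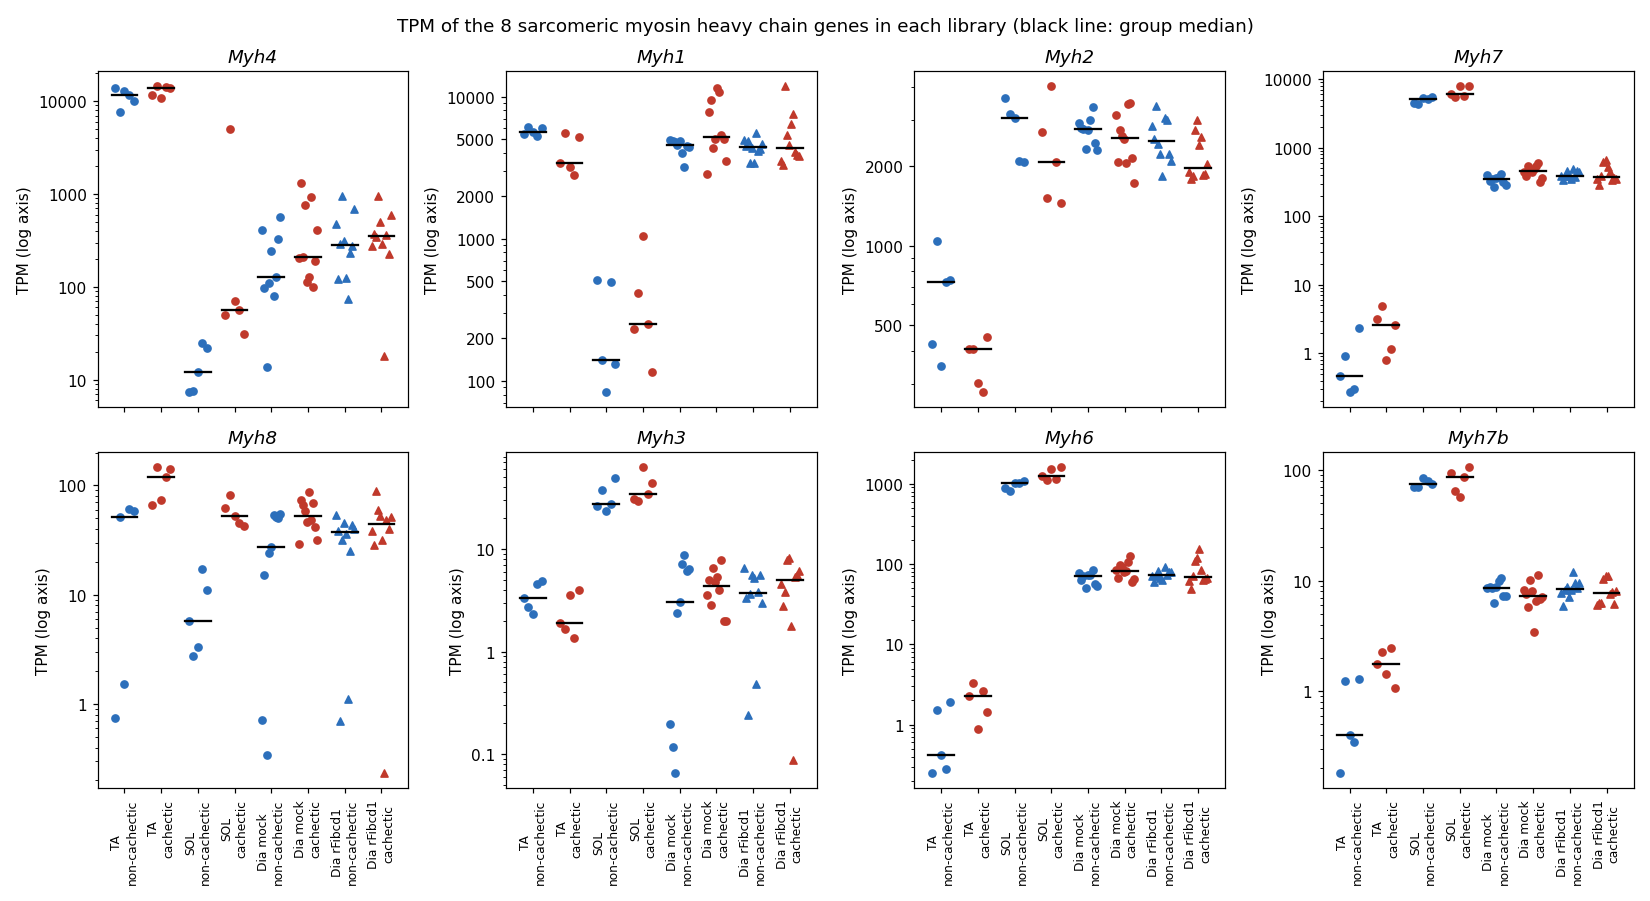
TPM of each of the 8 genes (y axes, log scale) in every library, by group on the x axis (TA, SOL and Dia; blue non-cachectic, red cachectic; circles mock or untreated, triangles rFibcd1), with a black line at the group median. *Myh7* lies between 4288 and 7886 TPM in SOL, between 265 and 652 TPM in Dia and below 5 TPM in TA, and *Myh8* has 5 Dia and 2 TA points below 2 TPM.

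The comparison between the muscles asked how far the chains differ between a fast, a slow and a mixed muscle. It was made in mice with the non-cachectic melanoma, with limma on log2(TPM + 1) in 1 fit of 39 libraries, and log2 differences are on that scale, which understates those of genes near 1 TPM. Between TA and SOL, 7 of 8 members passed an adjusted p of 0.05, beside 69.5% of the 13501 genes tested. The median over all genes was −0.47, and that of the members −2.51. *Myh4* was higher in TA by 9.60 ± 0.909 (log2, SE; adjusted p = 4.39e-11, limma) and *Myh1* by 4.76 ± 0.428. Lower in TA were *Myh7* (−11.48), *Myh6* (−9.09), *Myh7b* (−5.57), *Myh3* (−2.87) and *Myh2* (−2.16 ± 0.244). *Myh8* differed by 1.03 with an interval of −0.77 to 2.83.

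Between Dia and TA, 5 of 8 members passed, beside 72.5% of genes, with medians of 1.20 over the members and 0.44 over all genes. *Myh7* was higher in Dia by 7.63, *Myh6* by 5.25, *Myh7b* by 2.53 and *Myh2* by 2.15 ± 0.215, and *Myh4* was lower, at −6.22 ± 0.801. *Myh1* differed by −0.36 with an interval of −1.13 to 0.40, although all 9 Dia libraries were below the lowest TA library. With median-ratio scaling it was −0.94 and was called (adjusted p = 0.032, limma). Between Dia and SOL, 6 of 8 members passed, beside 38.8% of genes, with medians of −1.52 and −0.04. *Myh1* (4.40) and *Myh4* (3.38) were higher in Dia, and *Myh7* (−3.85), *Myh6* (−3.83), *Myh3* (−3.21) and *Myh7b* (−3.04) were lower. For *Myh2* the difference was −0.01 with an interval of −0.44 to 0.43.

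Partner genes of the thin and thick filament and of calcium handling were also called between the muscles, beside 69.5%, 72.5% and 38.8% of all genes in the 3 comparisons. In Dia against TA most genes called were higher (8640 genes), so that the slow partner genes stood near the background there. Of 17 fast-fiber partner genes (median difference between TA and SOL 2.07), 17 were higher in TA than in SOL, 17 were lower in Dia than in TA, and 12 were higher in Dia than in SOL with none lower. Of 16 slow-fiber partner genes (median −5.27), 16 were lower in TA than in SOL, 11 were higher in Dia than in TA with none lower, and 13 were lower in Dia than in SOL with none higher. Between TA and SOL the largest differences were those of *Pvalb*, a calcium buffer (9.42), and *Mybpc2*, the fast myosin-binding protein C (8.48), on the fast side, and of *Tnnc1* (−11.07) and *Tnnt1* (−10.64), the slow troponins C and T, on the slow side. Among 24 regulators of fiber type, 5 were higher and 13 lower in TA than in SOL, a share near the 69.5% called over all genes, of which most (8625) were lower. They included *Maf* (2.38), a large Maf factor tied to IIb fibers, and *Sox6* (1.82), a repressor of slow genes, which were higher, and *Rcan1* (−2.28), a calcineurin target, and *Prox1* (−3.05), a slow-fiber regulator, which were lower. Dia differed from TA in 12 of 24 upward, among them *Prox1* (1.98), and in 6 downward, among them *Mafa* (−1.96) and *Maf* (−1.56), again a share near that of all genes (72.5%). In Dia against SOL 4 of the 24 were higher and 10 lower, a larger share than the 38.8% of all genes.

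Genes whose level most resembled that of a chain were found by Pearson's r of log2(TPM + 1) over the 59 libraries, among 8763 genes. Since the libraries fall into 3 muscles, r mostly describes the muscles. For *Myh7* the leading genes were *Tnnt1* (0.995), *Tnnc1* (0.995), *Tnni1* (0.990) and *Atp2a2*, the slow calcium pump (0.987), and *Myh6* stood at 0.987. For *Myh4* they were *Actn3*, the fast alpha-actinin, and *Tspan8* (both 0.96), for *Myh2* *Ldhb* (0.93), *Rcan2*, *Bdh1*, *Wbp1* and *Casq2* (each 0.91), and for *Myh1* *2310008N11Rik* (0.91), *Pak1* (0.88), *Tbx1* (0.87), *Mybpc2* (0.86) and *Tnni2* (0.85). Within the 39 Dia libraries *Myh7* was closest to *Myh6* (0.93) and *Tnnc1* (0.81), *Myh4* to *Tspan8* (0.78) and *Actn3* (0.75), *Myh2* to *Evc* (0.73) and *Myh1* to *Ipo13* (0.83).

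In TA, the cachectic melanoma went with lower *Myh1* and *Myh2*. Of the 8 members 6 passed the test (4 higher, 2 lower), beside 60.2% of the 11105 genes tested, and a count of 6 of 8 is not far from that background. The median over all genes was 0.41. Median-ratio scaling brings the typical gene near 0 by construction, so the median of −0.02 after it is no separate result. *Myh1* was 0.684 of its non-cachectic level (log2 −0.55 ± 0.178, adjusted p = 0.0218, limma) and −1.05 with median-ratio scaling, and its call held without any 1 of the 10 libraries but not without the filter on low TPM (adjusted p = 0.059) or in 1 fit of all 59 libraries (adjusted p = 0.237). *Myh2* was lower by −0.75 ± 0.265 (adjusted p = 0.0305) and −1.25 with that scaling, and its call was lost without cachectic library 8 or 9 or non-cachectic library 62, 64 or 65, without the filter (adjusted p = 0.064) and by the rank-sum test (adjusted p = 0.126). *Myh4* differed by 0.24 with an interval of −0.11 to 0.59, and this sign turned to −0.26 with median-ratio scaling and was −0.00 without mitochondrial genes. *Myh3* differed by −0.42 (adjusted p = 0.135), and by −0.79 with an adjusted p of 0.012 after median-ratio scaling.

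As shares of the family, which do not depend on the scaling of a library, *Myh4* held 70.1, 51.5, 68.3, 65.9 and 59.5% in non-cachectic and 75, 70.5, 75.3, 81.5 and 70.4% in cachectic TA. *Myh1* held 27.7, 41.1, 29.8, 29.6 and 35.7% and then 21.9, 26.8, 22, 16.1 and 26.6%. Neither pair of ranges overlapped. The mean share of *Myh4* was 63% ± 7.62 and 74.5% ± 4.58 (SD, n = 5 and 5) and that of *Myh1* 32.8% ± 5.53 and 22.7% ± 4.36, with an exact two-sided permutation p of 0.00794 for each, the smallest that 5 against 5 can give, and 0.0739 after adjustment over the 24 share tests. *Myh2* held 3.92% ± 2.07 and 2.12% ± 0.377 (exact permutation p = 0.111). *Myh4* and *Myh1* together made up most of the TA family, so that a higher share of *Myh4* largely entails a lower share of *Myh1*. Their results are therefore not independent of each other. None of the 24 share tests passed the adjustment.

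*Myh6*, *Myh7* and *Myh7b* were called higher in cachectic TA, by 0.76, 0.89 and 0.75 on the log2(TPM + 1) scale, at levels between 0.181 and 4.83 TPM. With median-ratio scaling their adjusted p-values were 0.21, 0.18 and 0.10. The *Myh7b* call held without any 1 of the 10 libraries, and those of *Myh6* and *Myh7* were each lost in 6 and 7 of the 10. *Myh8*, the perinatal chain, was 0.740, 52.0, 1.53, 61.2 and 57.8 TPM in non-cachectic libraries 61 to 65 and 66.1, 148, 73.4, 119.7 and 141 TPM in cachectic libraries 6 to 10, with no overlap. The difference was 2.77 ± 0.972 (adjusted p = 0.0290, limma), and the call was lost with median-ratio scaling (2.33, adjusted p = 0.103) and in 5 of the 10 fits that left out a library, those without cachectic library 7, 9 or 10 or non-cachectic library 61 or 63. Libraries 61 and 63 were also the ones in which *Myh13*, a neighbor of *Myh8* that encodes an extraocular chain, was at most 0.569 TPM, against at least 12.2 TPM in the other 8 TA libraries. With both left out, an alternative chosen after their values were seen, *Myh8* differed by 0.86 (adjusted p = 0.051), *Myh1* by −0.57 (adjusted p = 0.083), and only *Myh2* was called, at −1.18.

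Other genes of the fiber program in TA were called in both directions, with medians of 0.11 over the fast partner genes and −0.55 over the slow ones, beside 0.41 over all genes. The counts stand beside 60.2% of all genes called, 6260 of them higher and the rest lower, and the lists were chosen with earlier results known. Of 17 fast partner genes 5 were higher and 3 lower, among them *Actn3* (0.99) and *Mybpc2* (0.63), and *Casq1*, the fast calsequestrin (−1.08), and *Myl1*, a fast light chain (−0.86). Of 16 slow partner genes 5 were higher and 8 lower, with *Tnnc1* (1.52) and *Tnnt1* (1.24) higher and *Myl3* (−2.74) and *Csrp3* (−1.77), a Z-disc protein that responds to stretch, lower. Of 23 tested regulators 10 were higher, including *Myog* (1.15) and *Foxo1* (1.10), and 2 lower, *Esrrb* (−0.70) and *Ppargc1b* (−0.61). Of 9 tested genes of developing or denervated fibers 5 were higher, including *Chrna1*, the alpha subunit of the acetylcholine receptor (0.98), and *Tnnt2*, the embryonic troponin T (1.05), and *Actc1* was lower (−2.81). Of the other myosin heavy chains, *Myh13* (2.28), *Myh9* (0.92) and *Myh14* (0.60) were higher among 5 tested.

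In SOL, the cachectic melanoma went with higher *Myh7*, *Myh6* and *Myh8*. These 3 members passed, beside 25.1% of the 11957 genes tested, whose median was 0.09. *Myh7* was higher by 0.41 ± 0.137 (adjusted p = 0.0498, limma) with 4 of 5 cachectic libraries above all non-cachectic ones, and *Myh6* by 0.46 ± 0.129 (adjusted p = 0.0226) with 5 of 5. Without mitochondrial genes both calls were lost (0.17, adjusted p = 0.36, and 0.22, adjusted p = 0.16), and in 1 fit of all 59 libraries (adjusted p = 0.224 and 0.158). The *Myh7* call was also lost with median-ratio scaling (0.31, adjusted p = 0.093) and in 7 of the 10 fits that left out a library, and the *Myh6* call without non-cachectic library 61 or 62. As a share of the family *Myh7* was 54.3% ± 6.12 and 56.4% ± 10.9 (SD, n = 5 and 5; exact permutation p = 0.754), and *Myh2* 30.7% ± 7.18 and 19.8% ± 7.44 (exact permutation p = 0.0635).

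*Myh8* was 5.80, 2.74, 3.31, 17.1 and 11.1 TPM in non-cachectic and 61.9, 81.1, 52.8, 45.0 and 42.2 TPM in cachectic SOL. The ranges were well apart, and the difference of 2.90 ± 0.391 had an adjusted p of 0.000589 (limma), which stayed below 0.05 in every fit that left out a library. *Myh3*, the embryonic chain, differed by 0.28 with an interval of −0.23 to 0.80 and was not called (adjusted p = 0.411, limma). *Myh4* was higher in 5 of 5 cachectic SOL libraries than in any non-cachectic one, yet its difference of 3.17 ± 1.147 had an adjusted p of 0.0635. Library 7 was at 4989 TPM. Without it the difference was 1.84 with an adjusted p of 0.0072, and the adjusted p was also below 0.05 without cachectic library 10 (3.66). At the same difference of 3.17 it was 0.0104 in 1 fit of all 59 libraries and 0.0398 by the rank-sum test.

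Library 7 differed from the other 4 cachectic SOL libraries in much of the fast program. There, 14 of 17 fast partner genes were above the other 4 and none below, beside 6.47% above and 19.5% below of all 12057 genes with a mean of at least 1 TPM in the group, including *Actn3* at 2357 TPM against 13.4 to 34, *Pvalb* at 1695 TPM against 10.7 to 28.7 and *Mybpc2* at 1428 TPM against 1.63 to 18.7. Of 16 slow partner genes 9 were below the other 4 and none above. Among these, *Tnnt1* was at 4649 TPM against 4974 to 7157. *Myh1*, by contrast, was 412 TPM in library 7, within the range of the other 4, and *Myh13* was 14.6 TPM against 2.13 to 5.87. Whether tissue of another muscle was present in this library was not tested.

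Over the whole SOL comparison, *Casq1* (−0.40) was the only 1 of 17 fast partner genes called. Of the slow partner genes, *Csrp3* (1.94), *Ankrd2*, a stretch-responsive ankyrin-repeat protein (1.74), and *Tnnc1* (0.45) were among 5 higher, and *Fabp3* (−0.88), a fatty acid carrier, was the only 1 lower. Among the regulators *Myog* (1.38) and *Rcan1* (0.90) were among 4 higher and *Ppargc1b* (−0.52) was among 3 lower, so that 7 of 24 were called, near the 25.1% over all genes. *Myh10* (1.24), a non-muscle chain, was the only 1 called among the 5 other myosins tested. Of 11 tested genes of developing or denervated fibers 2 were higher and none lower, beside 25.1% of all genes called.

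**Figure D3:**
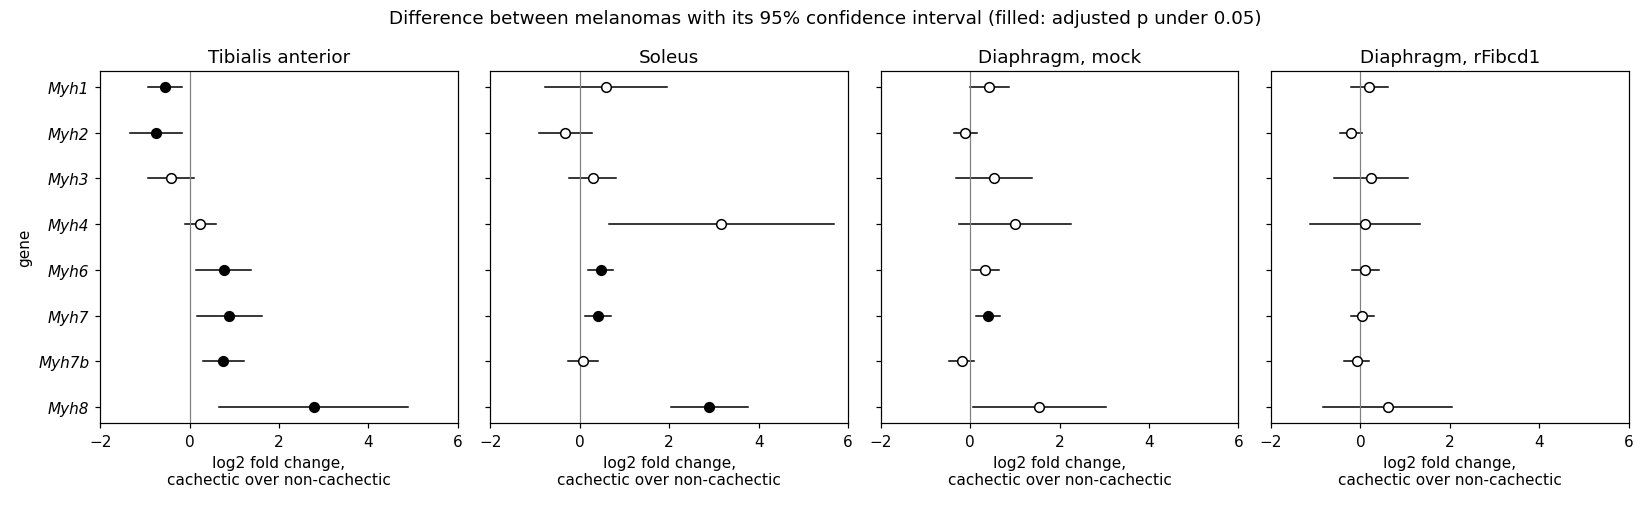
Difference between cachectic and non-cachectic melanoma (x axes, log2 fold change of TPM + 1) for each gene (y axis) in TA, SOL, mock Dia and rFibcd1 Dia, with 95% confidence intervals from limma; filled points have an adjusted p under 0.05. Filled are 6 points in TA, 3 in SOL, 1 in mock Dia and 0 in rFibcd1 Dia, and *Myh8* has the largest called difference in TA (2.77) and in SOL (2.90).

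In mock Dia, *Myh7* was the only member called between the melanomas, beside 33.5% of the 13426 genes tested, whose median was 0.20. It was 344 ± 49.7 TPM with the non-cachectic and 459 ± 88.5 TPM with the cachectic melanoma (SD, n = 9 and 10), a difference of 0.40 ± 0.129 (log2, SE; adjusted p = 0.0161, limma). The groups overlapped. With median-ratio scaling it was 0.17 (adjusted p = 0.49), without mitochondrial genes 0.17 (adjusted p = 0.40), among libraries above 2 TPM of *Pcna-ps2* 0.44 (adjusted p = 0.17), and with the *Pcna-ps2* state as a term 0.48 (adjusted p = 0.019). *Myh6* (0.34, adjusted p = 0.0792), *Myh8* (1.55, adjusted p = 0.0973) and *Myh1* (0.43, adjusted p = 0.115) did not pass, and *Myh7b* passed only without mitochondrial genes (−0.42, adjusted p = 0.047). With the *Pcna-ps2* state as a term, *Myh1* (0.64, adjusted p = 0.049) and *Myh6* (0.50, adjusted p = 0.028) were called too. For *Myh8* the difference was 0.32 with the *Pcna-ps2* term and −0.01 among libraries above 2 TPM of *Pcna-ps2*.

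As a share of the family, *Myh2* was 34.9% ± 4.98 in non-cachectic and 27.4% ± 9.34 in cachectic mock Dia (SD, n = 9 and 10; exact permutation p = 0.0447, adjusted 0.179). In rFibcd1 Dia it was 32.5% ± 3.46 and 27.0% ± 5.84 (n = 10 and 10; permutation p = 0.00924, adjusted 0.0739). *Myh1* held 56.5% ± 5.32 and 61.9% ± 10.8 in mock Dia, and 56.1% ± 4.17 and 61.2% ± 9.01 in rFibcd1 Dia, with adjusted permutation p-values of 0.415 and 0.295. The highest *Myh1* shares were 80.1% in cachectic mock library 20 and 81.2% in cachectic rFibcd1 library 3, and in these *Myh2* held the lowest shares of all Dia libraries, 14.4% and 12.6%, at 2052 and 1831 TPM. The partner lists in mock Dia were called about as often as all genes (33.5%). Here 4 of 17 fast partner genes were higher, including *Mybpc2* (0.69) and *Atp2a1*, the fast calcium pump (0.51), and *Casq1* was lower (−0.61). Of 16 slow partner genes 4 were higher, including *Ankrd2* (2.03) and *Myoz2* (0.76), and *Mb*, myoglobin, was lower (−0.58). Of 11 tested genes of developing or denervated fibers 6 were higher, including *Chrna1* (0.64) and *Runx1* (0.69), and *Actc1* was lower (−2.12). This list, unlike the partner lists, was called more often than all genes (33.5%). In rFibcd1 Dia 1 of the 11 was higher and none lower, beside 9.11% of all genes called.

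With rFibcd1, the melanoma difference was not called for any member, beside 9.11% of genes, and *Myh7* differed by 0.04 with an interval of −0.22 to 0.29. At an unadjusted p under 0.05 the count was also 0. The question whether rFibcd1 itself went with another chain composition was put within each melanoma. With the cachectic melanoma 0 of 8 members differed between rFibcd1 and mock, beside 0.0447% of genes, and the differences ran from −0.70 (*Myh8*, interval −2.14 to 0.75) to 0.11 (*Myh7b*). With the non-cachectic melanoma 0 of 8 differed, beside 0.417% of genes, and the largest were *Myh4* (0.89, interval −0.37 to 2.14) and *Myh7* (0.24, interval −0.02 to 0.51). The interaction of melanoma and rFibcd1 was called for 0 of 8 members, beside 0.0223% of genes. It was −0.36 for *Myh7* (unadjusted p = 0.0508 and adjusted p = 0.569, limma), so that *Myh7* was called with mock and not with rFibcd1 without a difference between them that passed its own test. The mock groups serve both in the melanoma difference with mock and in the comparisons of rFibcd1 with mock. As a share, *Myh7* was 5.25% ± 0.771 with rFibcd1 and 4.39% ± 0.666 with mock in non-cachectic Dia (exact permutation p = 0.0215, adjusted 0.103).

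*Myh8* and *Myh3*, the chains of developing fibers, were near 0 in some libraries. In Dia, *Myh8* was below 2 TPM in 5 of 39 libraries, at 1.12 TPM or less, while the lowest of the other 34 was 15.1 TPM. The 5 were non-cachectic mock libraries 61 and 63 (0.712 and 0.341 TPM), non-cachectic rFibcd1 libraries 48 and 57 (0.706 and 1.12 TPM) and cachectic rFibcd1 library 14 (0.234 TPM). *Myh3* was below 1 TPM in the same 5 and in non-cachectic mock library 62, at 0.483 TPM or less, and at least 1.77 TPM in the other 33. All 6 had *Pcna-ps2* at or below 2 TPM. Libraries numbered 61 and 63 were low in *Myh8* in both Dia and TA, and in SOL they held 5.80 and 3.31 TPM. *Myh3* did not drop with *Myh8* in TA, where it was 3.34 and 2.31 TPM in libraries 61 and 63, within the TA range of 1.35 to 4.91 TPM. In SOL *Myh3* was higher than in every other library, at 23.3 to 63.2 TPM.

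**Figure D4:**
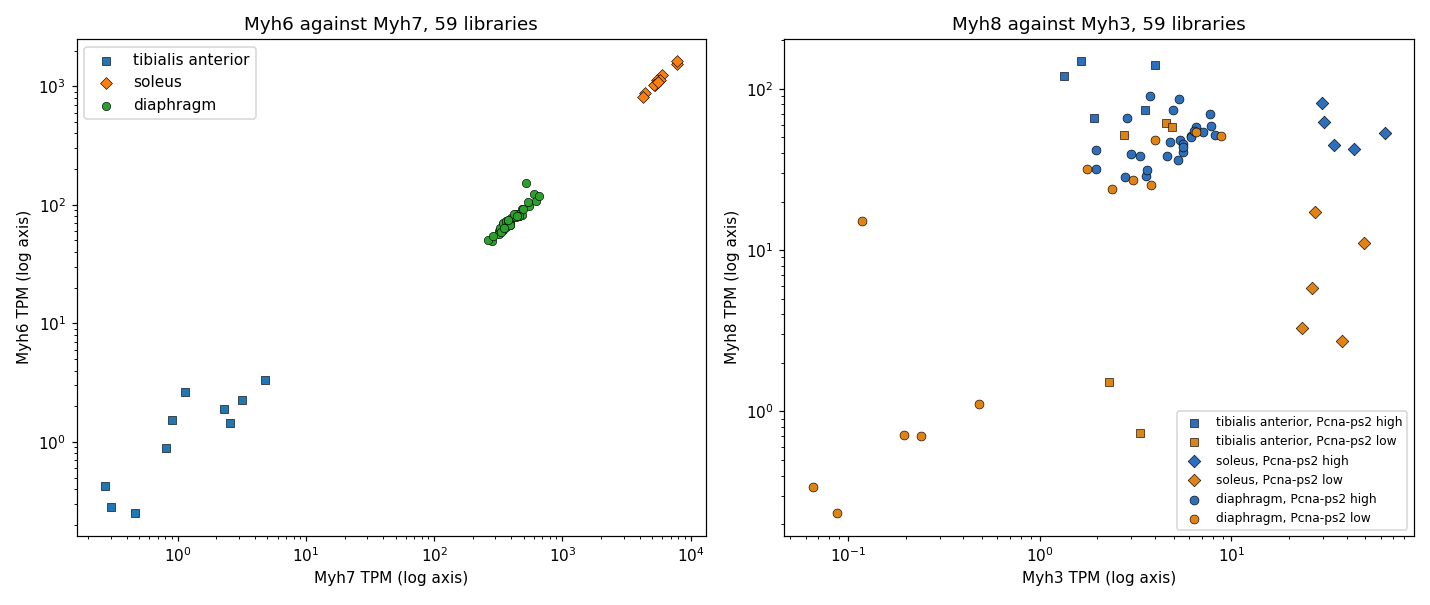
Left, TPM of *Myh6* (y axis, log scale) against *Myh7* (x axis, log scale) in the 59 libraries, marked by muscle; right, *Myh8* (y axis, log scale) against *Myh3* (x axis, log scale), colored by whether *Pcna-ps2* was above 2 TPM (high) or not (low). SOL and Dia points on the left lie along a *Myh6* level of 16.8 to 29.3% of *Myh7*, and on the right 5 Dia points lie below 2 TPM of *Myh8* and 0.5 TPM of *Myh3*.

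Whether the melanoma difference of a chain itself differed between muscles was tested in the fit of 6 groups. For TA against SOL 0 of 8 members passed, beside 20.4% of genes, and the lowest p-values were those of *Myh7b* (0.68, adjusted p = 0.0787, limma) and *Myh4* (−2.93, adjusted p = 0.0934). The *Myh4* gap was −1.60 without cachectic SOL library 7 (adjusted p = 0.243). Same-numbered libraries of the 2 muscles deviated together, and with the number as a block both passed, with adjusted p-values of 0.0198 for *Myh7b* and 0.0252 for *Myh4* at the same sizes, with library 7 included. For Dia against TA 1 of 8 passed, beside 5.04% of genes. This was *Myh7b* at −0.95 ± 0.248 (adjusted p = 0.0222), which was 0.75 in TA and −0.19 in mock Dia. With the block it was −0.90 (adjusted p = 0.00551), and *Myh3* passed too, at 1.34 (adjusted p = 0.0489). Without TA library 61 or 63 the *Myh7b* gap was −0.83 or −0.89 and was not called (adjusted p = 0.0614 and 0.0534). For Dia against SOL 0 of 8 passed, beside 2.52% of genes, and *Myh7* differed by −0.00 with an interval of −0.58 to 0.58.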

How the data were processed

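RNA-seq of mouse TA, SOL and Dia was analyzed from 1 deposited table of TPM for 47643 gene symbols in 59 libraries. Per the labels and the study's methods, the authors trimmed paired-end reads of 100 bases, kept those of at least 50 bases, mapped them to GRCm38 and computed TPM in CLC Genomics Workbench, and the gene annotation is not given in the sources used here. The labels and the methods name different library kits and instruments. Columns were matched to groups by their names, and 0 columns of per-sample values were left unused. The labels call the libraries of a group biological replicates without tying each to an animal, so p-values measure the spread between these libraries.

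Here, genes at 1 TPM or more in at least as many libraries as the smallest group were tested on log2(TPM + 1) with limma 3.58.1 in R 4.3.3 (empirical Bayes with a trend, Benjamini-Hochberg, adjusted p under 0.05). Dia (39 libraries), TA (10) and SOL (10) were fitted apart, and muscles were compared in the 39 libraries of the 6 groups without rFibcd1. The study's own test on log TPM, Kruskal-Wallis with Dunn's test, is an alternative. Shares were compared by two-sided permutation of the difference of means, exact where a group had under 10 libraries and with 100000 resamples otherwise, with Python 3.11.15 and scipy 1.17.1, and adjusted over 24 tests. The scripts were tested on simulated data. All 8 members are named, and of each partner list the called genes with the 2 highest and 2 lowest differences could be named; genes of developing fibers and those named in single libraries were picked after their values were seen. For 1 gene of the partner lists, named values are not reported here. The members and lists were chosen with earlier results of these data known. Same-numbered libraries correlated in their deviations from the group means by 0.196 to 0.493 between TA and SOL (10 of 10 pairs above 0.1), 0.133 to 0.502 between Dia and TA (10 of 10) and 0.0101 to 0.450 between Dia and SOL (8 of 10). Sequences and gene positions are from the GRCm38 reference tables. The depth is unknown, and no interval for counting error is given.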

Additional observations from a re-analysis of the deposited data

Results flagged for a closer look

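In 5 of 96 sets of 5, 9 or 10 libraries (1 gene, scale and group each), the highest or lowest library stood farther from the rest than Dixon's 95% limit allows, and chance alone gives this in about 1 of 20. *Myh4* was 4989 TPM in cachectic SOL library 7, where the next highest library had 69.8 TPM, and its share of the family there was 36.4% against at most 0.603% in the other 4. *Myh1* was 11824 TPM in cachectic rFibcd1 Dia library 3, with 7579 TPM in the next, and in the same library *Myh2* held 12.6% of the family, with 24.1% in the next lowest. In non-cachectic rFibcd1 Dia, *Myh1* held 46.1% of the family in library 49, and 52.7% in the next lowest.

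The difference of *Myh7b* between the melanomas was lower in mock Dia than in TA by the test of the difference itself, at −0.95 on the log2(TPM + 1) scale.

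In Dia library 3, 4 of 17 fast partner genes were above the other 9 libraries of its group, among them *Atp2a1* at 11070 TPM and *Myoz1* at 1350 TPM, and 4 were below, among them *Casq1* at 157 TPM. Of the 16 slow partner genes, 5 were below and none above, among them *Casq2* at 90.9 TPM. Of all 13249 genes with a mean of at least 1 TPM in the group, 13.8% were above and 5.97% below the other 9 libraries.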

How the results depend on the processing

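Of the counts of members called, 527 stayed within 1.5 times the reported count over all alternatives and 29 did not. Most alternatives leave out 1 library of a fit, which can be a library outside the groups compared. A count can also stay the same while the members called change. The tally therefore overstates how stable the calls are. For the log2 differences of single members, 4305 kept their side of the threshold, 65 lost the call and 21 gained it. The sign turned in 100 of these values, each of a member called neither in the report nor under the alternative. All 456 alternative values of the 24 share tests stayed on their side of the threshold. In TA and SOL this was close to fixed by the design. There, 0.00794 is the smallest exact permutation p that 5 against 5 libraries can give, before adjustment over the 24 tests.

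In mock Dia the count of 1 became 0 with median-ratio scaling, 0 among libraries with *Pcna-ps2* above 2 TPM, 3 with that state as a term, 3 at an unadjusted p under 0.05, and 1 to 2 without any 1 library. In TA the count of 6 became 1 without the filter on low TPM, 3 with a mean TPM of at least 5, 3 with median-ratio scaling, 3 with the rank-sum test, 1 without both non-cachectic libraries 61 and 63, and 3 to 5 without any 1 library. In SOL the count of 3 became 1 without mitochondrial genes and 1 to 4 without any 1 library. For the melanoma difference of TA against SOL the count of 0 became 1 with a pseudocount of 0.1, 1 without mitochondrial genes, 2 with the replicate block, and 0 to 1 without any 1 library. For Dia against TA the count of 1 became 2 with the replicate block and 0 to 1 without any 1 library. The block changed no count in the other comparisons between muscles. The cause of these changes was not tested, except that fits without a library or without the filter change the number of libraries or of genes tested.

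No paired analysis was possible because, within TA, SOL and Dia and in the share tests, the groups compared share no library number. TPM without read totals leave genes near 1 TPM without a stated precision, which bears on *Myh6*, *Myh7* and *Myh7b* in TA and on *Myh3* and *Myh8* in the lowest Dia libraries.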

Other observations

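The chain ratios within a library, which need no scaling, varied by muscle. *Myh1* over *Myh2* was 5.84 to 15.9 in TA, 0.915 to 6.46 in Dia and 0.0274 to 0.272 in SOL, with no overlap between SOL and the others. *Myh7b* was 2.19 to 2.70% of *Myh7* in non-cachectic mock Dia and 0.708 to 2.16% in cachectic mock Dia, and these ranges did not overlap. With rFibcd1 it was 1.77 to 2.53% and 1.61 to 2.34%. In SOL it was 1.36 to 1.64% and 0.733 to 1.57%. The *Myh7b* ratio was picked after its values were seen and was not tested.

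Of the other myosin heavy chain genes, *Myh9*, *Myh10*, *Myh11* and *Myh14*, which are made in non-muscle or smooth muscle cells, were lower in TA than in SOL, by −0.88, −2.43, −0.99 and −1.43 on the log2(TPM + 1) scale, and *Myh13* differed by 0.26, which was not called. *Myh13* was lower in Dia than in TA (−2.06) and in SOL (−1.81). *Myh10* (0.35) and *Myh11* (0.55) were higher with the cachectic melanoma in mock Dia, *Myh9* (0.43) and *Myh14* (0.17) were not called there, and *Myh15* passed the filter in no comparison.

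*Fibcd1* itself was listed at 0 to 0.273 TPM over the 59 libraries.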
